A study of Mus musculus with 6 samples.

Results

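Transcripts of 4 aquaporin genes, Aqp1, Aqp3, Aqp4 and Aqp5, were measured in whole eyeballs of newborn mice 1 day after birth, in 3 Brg1 cKO and 3 wild-type pups with 1 array each. The 4 genes were given by name. Their probe sets were those that the array annotation ties to that gene and to no other, which gave 7 probe sets of 22626 on the array, for 4 of the 12393 genes that have such a probe set. Where a gene had several, the one with the highest average log2 value stood for it and the others served as a check. Brg1 cKO pups carried floxed alleles of Brg1 on both chromosomes together with 1 copy of the Le-Cre transgene. Brg1, encoded by Smarca4, is the ATPase of SWI/SNF chromatin remodeling complexes, and Le-Cre acts in the surface ectoderm, the source of lens, corneal epithelium and lid epidermis. The controls are labelled wild type, and the methods of the study describe its controls as littermates with floxed Brg1 alleles and no Cre. Both groups were kept on a mixed background, and no group with Le-Cre alone was measured here. The study also describes Brg1 deletion as incomplete in many embryos and the eye defects as uneven between pups, so the Brg1 cKO group is not uniform. Values are log2 RMA intensities. The low end of this scale is taken as 4.84, the 25th percentile of all values.

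Aquaporins are membrane channels through which water crosses cells along osmotic gradients that ion pumps and exchangers set up. The mouse eye uses several of them in different tissues. Aqp1 is made by corneal endothelium, the epithelia of iris and ciliary body, many capillary endothelia and red cells. Aqp3, which also passes glycerol, sits in conjunctival epithelium, corneal epithelium and the basal layers of skin. Aqp4 is the channel of Mueller glia and astrocytes and is also found in fast skeletal muscle fibers. Aqp5 is made by corneal epithelium and by the acini of lacrimal glands, and has also been found in lens. Lens fiber cells carry Mip, the aquaporin of the lens, as one of their most abundant membrane proteins. In an RNA pool of the whole eyeball, a smaller number of cells of a type and less RNA in each cell cannot be told apart.

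The start regions of Aqp1, Aqp3, Aqp5 and Mip are shown because Aqp5 and Mip were lower in every Brg1 cKO array while Aqp1 and Aqp3 were not. Each run covers 300 bases around the start of the gene in RefSeq, build GRCm38.p6, from 250 bases before it to 50 after, read along the strand of the gene. Capitals mark matches on either strand to TATAAA, the TATA box, and to GGGCGG, the GC box.
Aqp1: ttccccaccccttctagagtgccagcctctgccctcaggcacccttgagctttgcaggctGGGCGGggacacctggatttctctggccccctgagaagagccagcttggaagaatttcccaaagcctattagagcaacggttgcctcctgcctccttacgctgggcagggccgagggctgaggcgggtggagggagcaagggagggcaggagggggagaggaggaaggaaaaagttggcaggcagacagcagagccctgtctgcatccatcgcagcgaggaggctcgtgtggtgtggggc
Aqp3: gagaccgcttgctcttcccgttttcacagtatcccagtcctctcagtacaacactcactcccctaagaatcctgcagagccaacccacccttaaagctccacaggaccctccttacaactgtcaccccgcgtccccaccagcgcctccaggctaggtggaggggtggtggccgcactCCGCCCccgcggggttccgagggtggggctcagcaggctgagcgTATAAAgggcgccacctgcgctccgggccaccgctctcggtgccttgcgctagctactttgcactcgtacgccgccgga
Aqp5: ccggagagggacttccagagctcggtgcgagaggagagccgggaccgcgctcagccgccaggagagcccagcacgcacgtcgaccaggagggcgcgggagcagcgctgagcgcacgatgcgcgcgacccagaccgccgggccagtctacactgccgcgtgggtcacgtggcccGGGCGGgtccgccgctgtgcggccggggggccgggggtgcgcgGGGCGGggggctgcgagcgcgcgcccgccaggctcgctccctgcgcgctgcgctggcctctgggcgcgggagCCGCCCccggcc
Mip: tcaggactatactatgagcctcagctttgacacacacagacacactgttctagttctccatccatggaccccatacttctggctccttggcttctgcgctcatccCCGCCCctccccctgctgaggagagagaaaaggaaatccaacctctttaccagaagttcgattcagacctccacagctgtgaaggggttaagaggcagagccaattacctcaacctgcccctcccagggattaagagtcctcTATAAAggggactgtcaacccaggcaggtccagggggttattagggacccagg
These windows lie at chr6:55336049-55336348 on the plus strand for Aqp1, chr4:41098134-41098433 on the minus strand for Aqp3, chr15:99590778-99591077 on the plus strand for Aqp5 and chr10:128225560-128225859 on the plus strand for Mip. No promoter sequence of Aqp4 is shown. The Aqp5 window was 79.7% G and C and held 3 GC boxes and 0 TATA boxes. The windows of Aqp3, Aqp1 and Mip were 64.0%, 62.7% and 53.3% G and C and held 1 GC box each. A TATA box stood in the Aqp3 window, at positions -29 to -24 from the start, and in the Mip window, across the annotated start. Of 32851 mouse promoter windows of this length, 35.7% held a GC box and 13.6% a TATA box. The AP-1 motif TGANTCA, in 7.81% of the windows, was in 0 of the 4. These are letter matches only, and the 2 genes that were lower in every Brg1 cKO array had neither a shared TATA box nor a shared number of GC boxes.

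Median array intensity ran from 180.0 to 185.5 in Brg1 cKO and from 169.1 to 184.6 in wild-type eyeballs. The Brg1 cKO replicate 1 pup was male by its Xist value of 3.30, and the other 5 pups, at 11.70 to 12.13, were female. The probe set of Smarca4 with the highest signal, 9.93 to 10.35 in Brg1 cKO and 9.81 to 10.11 in wild-type eyeballs, did not separate the genotypes, and the sources used here do not say whether it lies in the deleted part. Of the 13 lens fiber genes measured, the groups did not overlap in 12, all lower in Brg1 cKO, and of 22 ocular surface genes in 15, with 14 lower and 1 higher. Over all probe sets the groups did not overlap in 6.44% with Brg1 cKO lower and in 7.31% with Brg1 cKO higher. All gene lists used here were chosen with earlier results of these data known, so their counts are descriptive only. All 13 measured lens fiber genes had a lower mean in Brg1 cKO eyeballs, with a median difference of -2.79, though 1 of them, Gja3, passed the limma threshold (adjusted p under 0.05). Krt12, the keratin of corneal epithelium, was at 5.23, 6.01 and 5.85 in Brg1 cKO, against 9.49, 9.53 and 9.19 in wild-type eyeballs. The SD of a probe set had a median of 0.30 in Brg1 cKO and 0.22 in wild-type arrays, and of 0.21 in Brg1 cKO arrays without replicate 2.

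None of the 4 aquaporins passed the test for a difference between genotypes. With limma and Benjamini-Hochberg adjustment over all 22626 probe sets, 0 of 4 genes had an adjusted p under 0.05, where 0.508% of all probe sets did. At an unadjusted limma p under 0.05, 1 of the 4, Aqp5, was lower in Brg1 cKO eyeballs, among 1900 probe sets in all. Aqp5 was also the only one that met the thresholds of the study, a p under 0.05 with a fold over 1.5. This held with the limma p, where 1467 probe sets (6.48%) met them. It also held with template matching, in which values are correlated with a genotype profile, where 812 (3.59%) did. Both counts are below the number of genes that the study reports for its Brg1 cKO eyeballs. They therefore do not show which aquaporins the study selected. Aqp5 was again the only one whose groups did not overlap, with Brg1 cKO lower, as was so for 6.44% of all probe sets. For the remaining 3 genes the 95% intervals of the difference included 0 and reached past 1 log2 unit, upward for Aqp1 and downward for Aqp3 and Aqp4, so that changes of this size lay within the error of 3 arrays a group.

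**Figure D1:**
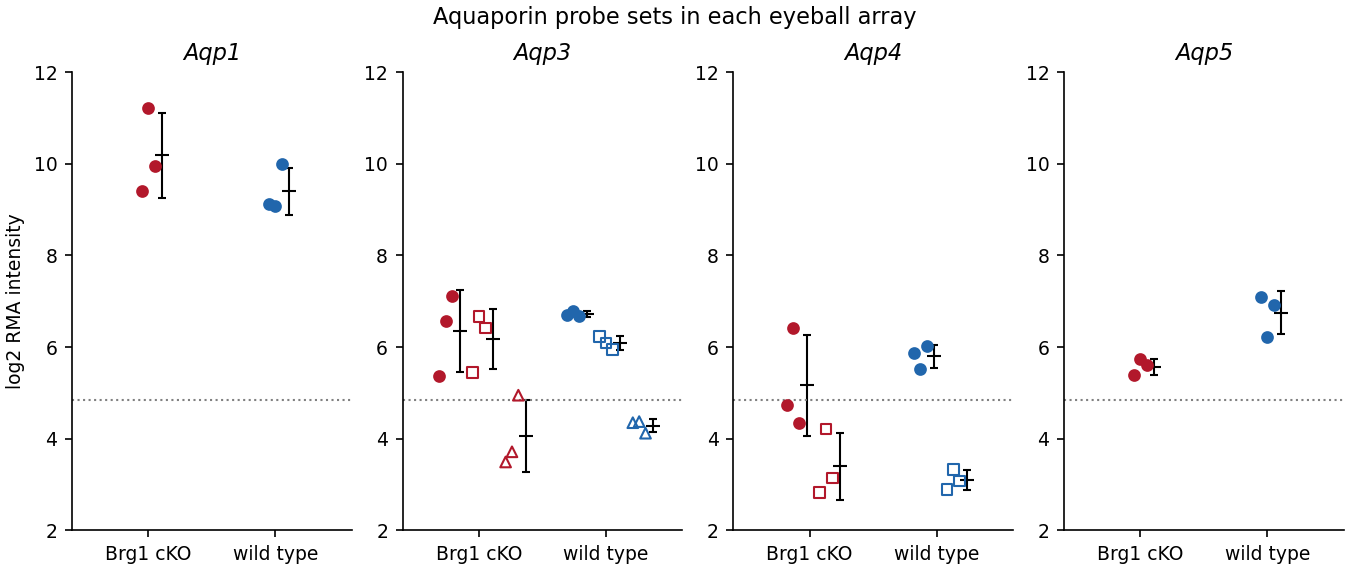
Log2 RMA intensity (vertical axis) of the probe sets of Aqp1, Aqp3, Aqp4 and Aqp5 in 3 Brg1 cKO (red, left) and 3 wild-type (blue, right) eyeballs; each symbol is an array, filled circles are the probe set that stands for the gene, open squares and triangles are other probe sets, black bars are mean and SD, and the dotted line is the low end at 4.84. Only the Aqp5 groups are apart, at 5.38 to 5.73 in Brg1 cKO and 6.23 to 7.10 in wild type, and the Brg1 cKO arrays of Aqp1, Aqp3 and Aqp4 are spread more widely than the wild-type arrays.

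Aqp5, the water channel of corneal epithelium and lacrimal acini, had log2 values of 5.38, 5.73 and 5.60 in Brg1 cKO eyeballs, against 7.10, 6.23 and 6.93 in wild-type eyeballs. All Brg1 cKO values were below all wild-type values, and the gap between the nearest arrays, Brg1 cKO replicate 2 and wild type replicate 2, was smaller than the spread among the wild-type arrays. The means were 5.57 ± 0.18 in Brg1 cKO and 6.75 ± 0.46 in wild type (SD, n = 3 each). The difference was -1.18 (SE 0.26, 95% interval -1.79 to -0.57), or 2.27-fold lower in Brg1 cKO, with a limma p of 0.00241 and an adjusted p of 0.172. The exact permutation p of the 6 values was 0.1, the smallest that 3 arrays against 3 allow. The array carries 1 probe set of Aqp5 that names it alone, so no second probe set checked this value. The difference stayed between -1.44 and -0.97 under all 14 alternatives tried, with an adjusted p of 0.119 to 0.560.

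Genes of the tissues that make Aqp5 were set beside it. Their lists were chosen with earlier results of these data known, so the counts are not an independent check. Of 22 measured genes of corneal and conjunctival epithelium, 17 had a lower mean in Brg1 cKO eyeballs, and 3 fell past the limma threshold. These were Krt12, Ehf and Elf5, with differences of -3.71 (adjusted p = 0.00194), -3.88 (0.00752) and -2.86 (0.0248). Ehf and Elf5 are ETS-family transcription factors of epithelia. The median difference of the list was -1.34, against 0.02 over all 12393 genes, of which 53 rose and 33 fell. From the wild-type mean the list shifted by -1.72, -0.87 and -0.90 in the 3 Brg1 cKO arrays, and Aqp5 by -1.37, -1.02 and -1.15. Both were lowest in Brg1 cKO replicate 1, and the list was far from even, since Krt14, a keratin of basal epithelium, was at 10.64, 11.19 and 11.36 in Brg1 cKO, against 10.38, 10.39 and 9.80 in wild-type eyeballs. The part of epithelial content in the Aqp5 difference was not tested.

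Lens fiber genes, from a tissue where Aqp5 has also been found, had lower means too. The 13 genes shifted as a list by -2.94, -0.88 and -4.11 in the Brg1 cKO arrays, whose order differs from that of Aqp5, and the part of lens content in the Aqp5 difference was not tested. Lacrimal and Harderian gland genes were also measured. Of 12 genes, Wfdc18 fell (difference -5.47, adjusted p = 0.02) and Slpi, a secreted protease inhibitor of many epithelia, rose (4.19, adjusted p = 0.0177). The median difference of the list was -0.20. Pip, a secreted protein of lacrimal and salivary glands, was at 2.96, 2.86 and 2.95 in Brg1 cKO, against 6.81, 4.55 and 3.50 in wild-type eyeballs (difference -2.03, adjusted p = 0.510). Only wild type replicate 1 was above the low end for Pip. Prol1 and Obp1a, 2 other gland secretory genes, were below the low end of the scale in all 6 arrays. Amy1 went the other way, at 8.90, 7.88 and 7.90 in Brg1 cKO, against 7.44, 7.79 and 7.20 in wild type. Its difference was 0.75 without overlap (adjusted p = 0.592). Of the 12 genes, the groups did not overlap in 2 with Brg1 cKO lower and in 2 with it higher. Whether gland tissue was on the dissected eyeballs is not stated, and its part in the Aqp5 values was not tested.

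The genes closest to Aqp5 across the 6 arrays were Eps8l2, Ano1 and Irf4. Likeness was the root-mean-square (RMS) difference between mean-centred log2 profiles, among 9773 genes whose mean over the 6 arrays was above the low end. Eps8l2, which encodes an actin-regulating protein, was at an RMS of 0.10 from Aqp5, with 5.14, 5.70 and 5.49 in Brg1 cKO, against 6.94, 6.17 and 6.61 in wild-type eyeballs. Ano1, a calcium-activated chloride channel of secretory epithelia, followed at 0.14, with 6.95, 7.38 and 7.19 in Brg1 cKO, against 8.37, 7.53 and 8.39 in wild type. Irf4, a transcription factor best known from lymphocytes and pigment cells, came next at 0.19. It was at 4.41, 4.73 and 4.68 in Brg1 cKO, all below the low end, against 5.65, 5.08 and 5.61 in wild type. In all 3 the wild type replicate 2 array was the lowest of the wild-type arrays, as it was for Aqp5. The 3 genes were picked for such likeness, so this follows from the selection and was not tested. Their differences, -1.13, -0.92 and -0.84, also missed the limma threshold (adjusted p of 0.185 to 0.362).

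**Figure D2:**
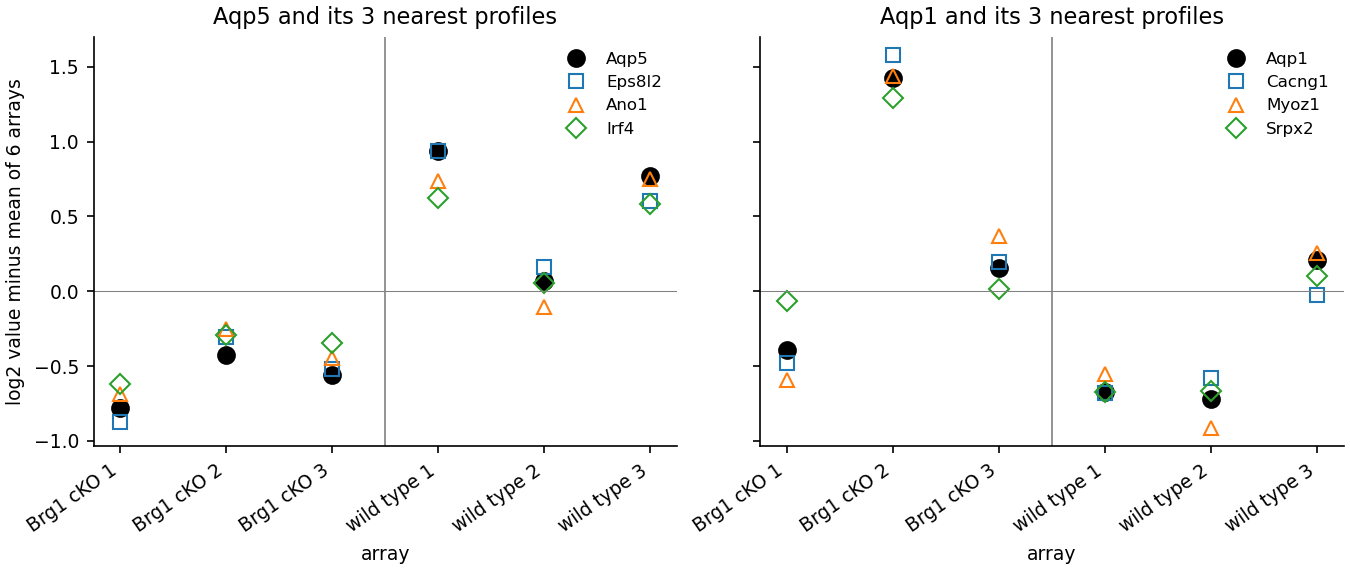
Log2 value minus the mean of the 6 arrays (vertical axis) for Aqp5 (left) and Aqp1 (right) with the 3 genes nearest to each, in 3 Brg1 cKO arrays and then 3 wild-type arrays; each symbol is an array. Aqp5 and its neighbours are lower in the Brg1 cKO arrays, while Aqp1 and its neighbours are highest in Brg1 cKO replicate 2.

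Aqp1, the channel of corneal endothelium, iris and ciliary epithelium, capillaries and red cells, had log2 values of 9.40, 11.22 and 9.95 in Brg1 cKO eyeballs, against 9.12, 9.08 and 10.00 in wild-type eyeballs. The groups overlapped, with Brg1 cKO replicate 2 above all others and wild type replicate 3 above Brg1 cKO replicates 1 and 3. Means were 10.19 ± 0.93 in Brg1 cKO and 9.40 ± 0.52 in wild type (SD, n = 3 each), a difference of 0.79 (SE 0.48, 95% interval -0.34 to 1.91). That 1.73-fold higher mean did not pass the limma test (adjusted p = 0.748, exact permutation p = 0.3). Without Brg1 cKO replicate 2 the difference was 0.27. Aqp1 had 1 probe set.

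The median level of the endothelial list had the order of arrays of Aqp1 at the upper end. Brg1 cKO replicate 2 came first and wild type replicate 3 next. For the muscle list the median level was 10.81 in Brg1 cKO replicate 2, 10.31 in Brg1 cKO replicate 3 and 10.14 in wild type replicate 3. In the shifts below, a wild-type array is set against the other wild-type arrays only. Gene by gene, 7 of 17 endothelial and 11 of 24 muscle genes had the order of Aqp1. Brg1 cKO replicate 2 was the highest array for 15 of the endothelial and 19 of the muscle genes. It was also highest for 15 of 17 leukocyte genes, whose list shifted by 1.81 in that array, though 1 of them had the order of Aqp1. The list of pigment cells and pigment epithelium includes the pigment epithelium of iris and ciliary body. Brg1 cKO replicate 2 was highest for 2 of its 11 genes, and 0 had the order of Aqp1. That list shifted by 0.24, 0.08 and 0.14 in the Brg1 cKO arrays. The share of all genes with these orders was not counted. Of 17 endothelial genes 15 had a higher mean in Brg1 cKO, 0 passed the limma test and the median difference was 0.48. The endothelial list shifted by 0.01, 0.88 and 0.32 in the Brg1 cKO arrays and by -0.15, -0.31 and 0.64 in the wild-type arrays, where Aqp1 shifted by 0.00, 1.82 and 0.55 in Brg1 cKO and by -0.42, -0.48 and 0.90 in wild type. Emcn, a sialomucin of capillary and venous endothelium, was at 8.64, 9.86 and 9.79 in Brg1 cKO, against 8.38, 8.40 and 9.04 in wild-type eyeballs. The 24 skeletal muscle genes, markers of the eye muscles attached to the globe, shifted by -0.52, 1.18 and 0.49 in Brg1 cKO and by -0.47, -0.48 and 1.07 in wild-type arrays, with 0 past the test. The erythroid list shifted by -0.29, 0.12 and -0.20 in Brg1 cKO and by -0.13, -0.07 and 0.18 in wild type, but 7 of its 13 genes had means below the low end. Some erythroid genes above it, chosen here after their values were seen, also peaked in Brg1 cKO replicate 2 and then wild type replicate 3. Hbb-b2, a beta globin, was at 10.49, 12.03 and 11.09 in Brg1 cKO, against 11.70, 11.72 and 11.93 in wild-type eyeballs, and Alas2, the erythroid enzyme that starts heme synthesis, at 6.66, 8.84 and 7.15 in Brg1 cKO, against 7.22, 7.40 and 8.33 in wild type. This order was found in 3 of the 13 erythroid genes. The muscle, endothelial and some erythroid genes thus varied between eyeballs of the same genotype, and their part in the Aqp1 values was not tested. With the array of each genotype that was highest for muscle left out, Aqp1 differed by 0.57.

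Profiles nearest to Aqp1 included 2 muscle genes. Cacng1, a subunit of the calcium channel of skeletal muscle, was nearest at an RMS of 0.13, with 5.87, 7.92 and 6.54 in Brg1 cKO, against 5.67, 5.77 and 6.32 in wild-type eyeballs. Myoz1, a protein of the muscle Z-disc, and Srpx2, a secreted protein, both stood at 0.16. As for Aqp1, Brg1 cKO replicate 2 was the highest array for each of the 3. With 6 arrays from 6 pups these likenesses describe the arrays and were not tested. The 10 measured genes of corneal stroma and endothelium, another Aqp1 tissue, had a median difference of -0.35, with 0 past the test. Aldh1a7, an aldehyde dehydrogenase, was at 4.93, 3.33 and 5.22 in Brg1 cKO, against 6.67, 6.39 and 8.54 in wild-type eyeballs, a difference of -2.71 without overlap (adjusted p = 0.245). Kera, the keratan sulfate proteoglycan keratocan of the corneal stroma, was at 9.07, 10.11 and 9.52 in Brg1 cKO, against 10.47, 10.28 and 10.99 in wild type (difference -1.01, adjusted p = 0.397).

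Aqp3, the water and glycerol channel of surface epithelia, had log2 values of 5.37, 6.56 and 7.12 in Brg1 cKO eyeballs, against 6.69, 6.79 and 6.67 in wild-type eyeballs. The wild-type arrays were nearly level, and the Brg1 cKO arrays lay on both sides of them. Means were 6.35 ± 0.90 in Brg1 cKO and 6.72 ± 0.07 in wild type (SD, n = 3 each), and the difference of -0.37 (SE 0.41, 95% interval -1.34 to 0.60) did not pass the limma test (adjusted p = 0.870, exact permutation p = 0.7). The direction depended on 1 array, since the difference was 0.12 without Brg1 cKO replicate 1. That array came from the only male pup, and sex was not in the fit, so its sex and its other traits cannot be told apart. A second probe set gave 5.44, 6.67 and 6.41 in Brg1 cKO, against 6.24, 6.09 and 5.94 in wild type, a difference of 0.09. The third gave 3.49, 3.71 and 4.95 in Brg1 cKO, against 4.35, 4.37 and 4.12 in wild type, mostly below the low end, and differed by -0.23. Brg1 cKO replicate 1 was the lowest of the 6 arrays in all 3 probe sets.

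In the probe set that stood for Aqp3, Brg1 cKO replicate 1 was lowest and replicate 3 highest of the Brg1 cKO arrays. The second probe set was highest in replicate 2 instead. The first order was found in 8 of 21 genes listed for suprabasal and cornified epidermis. It was also found in 3 of 7 of the complex that anchors Aqp4 and 0 of 13 lens fiber genes. The share over all genes was not counted. Of the 22 measured genes of corneal and conjunctival epithelium 5 had it, Ehf, Krt4, Trp63, Krt13 and Krt14, and the other 17 did not. Of these 5, Trp63 and Krt4 were picked here after their values were seen. Trp63, the transcription factor of basal cells of stratified epithelia, was at 6.63, 7.47 and 8.75 in Brg1 cKO, against 9.61, 9.68 and 9.66 in wild-type eyeballs. Krt4, a conjunctival keratin, was at 4.90, 5.99 and 6.56 in Brg1 cKO, against 8.63, 8.31 and 7.32 in wild type. Unlike Aqp3, these genes lay below wild type in all Brg1 cKO arrays, though neither passed the limma test (adjusted p of 0.209 for Trp63 and 0.160 for Krt4). Krt5, the basal keratin of skin and ocular surface, differed by -0.02, with 10.16, 11.09 and 10.96 in Brg1 cKO, against 10.50, 11.24 and 10.54 in wild type.

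Of 21 measured genes listed for suprabasal and cornified epidermis, 6 rose past the limma threshold, 0 fell and the median difference was 0.79. The 6 were Sprr1b, Sprr1a, Krt16, Dmkn, Krt6b and Sprr2d. Aqp3 sits in the basal layers of skin, while this list is named for the layers above them. The means of 4 genes were lower in Brg1 cKO, with differences of -3.04 for Calml3, without overlap (adjusted p = 0.0533), -0.60 for Krt1, -0.37 for Krt10 and -0.12 for Tgm3. This list shifted by 0.45, 1.20 and 0.92 in the Brg1 cKO arrays, again with replicate 1 lowest. The means of 5 of its genes were below the low end of the scale. The part of epidermal content in the Aqp3 values was not tested. Among profiles nearest to Aqp3 were Pcsk5, a proprotein convertase, at an RMS of 0.23, Ces2g, a carboxylesterase, at 0.23 and S100a10, an annexin-binding protein, at 0.24. S100a10 was at 10.96, 11.93 and 11.97 in Brg1 cKO, against 11.82, 11.88 and 12.01 in wild-type eyeballs. It too was lowest in Brg1 cKO replicate 1, a likeness for which it was picked.

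Aqp4, the channel of Mueller glia and of fast muscle fibers, had log2 values of 4.73, 6.40 and 4.34 in Brg1 cKO eyeballs, against 5.86, 5.52 and 6.02 in wild-type eyeballs. Brg1 cKO replicates 1 and 3 were below the low end of the scale and below all wild-type arrays, and replicate 2 was above them. Means were 5.16 ± 1.09 in Brg1 cKO and 5.80 ± 0.25 in wild type (SD, n = 3 each). The difference of -0.64 (SE 0.50, 95% interval -1.82 to 0.54) did not pass the limma test (adjusted p = 0.810, exact permutation p = 0.4). It was -1.26 without Brg1 cKO replicate 2 (adjusted p = 0.0969) and -0.23 without replicate 3, so 1 array moved it widely. The second probe set lay below the low end in all 6 arrays, at 2.83, 4.21 and 3.14 in Brg1 cKO, against 2.89, 3.32 and 3.08 in wild type, and ran the other way, with a difference of 0.30.

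Glial genes differed little as a list beside Aqp4. The 17 measured genes of Mueller glia and astrocytes had a median difference of 0.01, with 0 past the test, and shifts of 0.29, -0.07 and -0.03 in the Brg1 cKO arrays. Rlbp1, the retinaldehyde-binding protein of Mueller glia, was at 10.17, 9.92 and 9.90 in Brg1 cKO, against 9.53, 10.40 and 10.04 in wild-type eyeballs. Glul, the glutamine synthetase of these cells, differed by 0.11. The smallest p of the list belonged to Aldoc, a glycolytic aldolase of glia and neurons, at 8.56, 8.56 and 8.12 in Brg1 cKO, against 9.51, 9.75 and 10.10 in wild type (difference -1.37, adjusted p = 0.0643). Aldh1l1, a folate enzyme of astrocytes, differed by -1.17, without overlap (adjusted p = 0.363). Kcnj10, the potassium channel found beside Aqp4 on Mueller cell endfeet, was at 7.28, 6.98 and 6.55 in Brg1 cKO, against 6.23, 6.78 and 6.08 in wild type, a difference of 0.57 opposite in sign to that of Aqp4.

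The dystrophin complex that anchors Aqp4 in the membrane did not differ past the test either. Of 7 measured genes 0 passed, and the median difference was -0.02. Dmd, dystrophin itself, was at 8.82, 9.10 and 9.14 in Brg1 cKO, against 9.07, 9.05 and 9.01 in wild-type eyeballs. Dtna, which encodes alpha-dystrobrevin, was lowest in Brg1 cKO replicate 1 and highest in wild type replicate 3, at 6.21, 7.70 and 6.93 in Brg1 cKO, against 6.91, 7.24 and 8.17 in wild type. The muscle list, whose tissue also holds Aqp4, was highest in Brg1 cKO replicate 2, the array where Aqp4 was highest, yet lowest in replicate 1 rather than in replicate 3. Lens fiber genes followed the order of Aqp4 among the Brg1 cKO arrays, with shifts of -2.94, -0.88 and -4.11. In replicate 2, however, Aqp4 was above the wild-type mean, with a shift of 0.60, while the lens list was below it. The part of muscle or lens content in the Aqp4 values was not tested. Nearest to the Aqp4 profile were Igkv8-30, an immunoglobulin segment, at an RMS of 0.26, and Prr15 and Lsr, both at 0.28. Lsr, a protein of epithelial tricellular junctions, was at 6.73, 8.54 and 7.06 in Brg1 cKO, against 7.68, 7.66 and 8.08 in wild type.

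**Figure D3:**
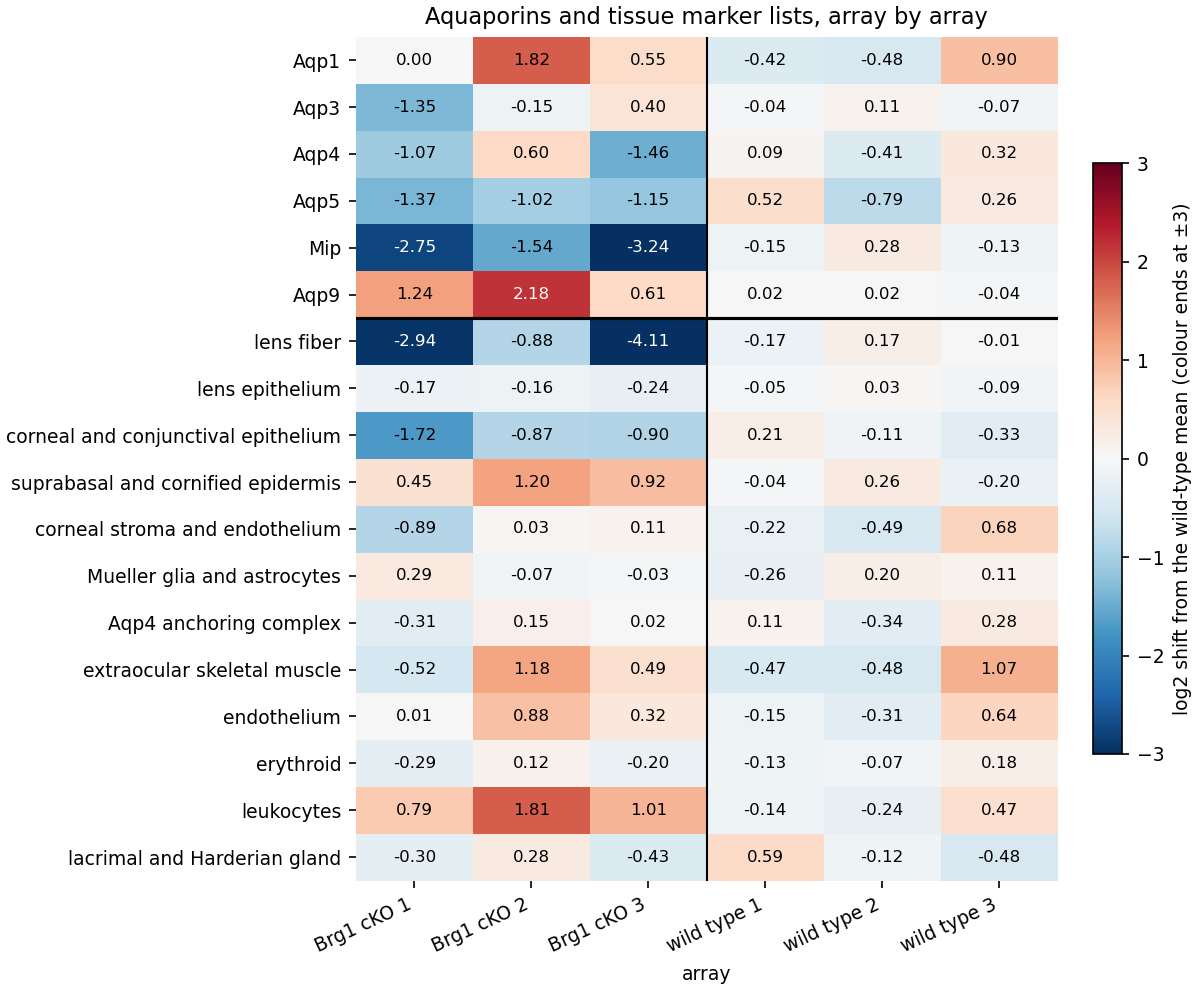
Log2 shift of each array (columns, 3 Brg1 cKO arrays then 3 wild-type arrays) from the wild-type mean (a wild-type array is set against the average of the other two), for 6 aquaporin genes (upper rows) and as the median over the genes of each marker list (lower rows); the colour scale ends at 3 log2 units either way. Aqp5 and Mip are below 0 in all Brg1 cKO arrays, as are the lens fiber list and the list of corneal and conjunctival epithelium, while Aqp1 is highest in the arrays where the muscle and endothelial lists are highest.

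The 4 genes were also compared with each other by the change of their log2 ratio between genotypes, a comparison of 6 pairs chosen after the values were seen. The ratio of Aqp1 to Aqp5 was higher in Brg1 cKO by 1.97 (SE 0.55) and that of Aqp1 to Aqp4 by 1.43 (SE 0.36), and in both pairs the groups did not overlap. The exact permutation p was 0.1 for each, the smallest possible, and 0.3 after adjustment over the 6 pairs. In the other 4 pairs the groups overlapped. Aqp3 and Aqp4 were the pair with the smallest change, 0.27 (SE 0.82), which leaves room for changes of more than 1 log2 unit either way. With 3 arrays a group this test could not have passed for any pair, so it does not show whether the members differ in response.

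The rest of the family gave 5 measured genes of 8, since Aqp6, Aqp11 and Aqp12 had no probe set of their own. Mip was at 9.72, 10.93 and 9.23 in Brg1 cKO eyeballs, against 12.37, 12.66 and 12.39 in wild-type eyeballs. Every Brg1 cKO array lay more than 1 log2 unit below every wild-type array, with replicate 2 the highest of the 3. The difference of -2.51 (SE 0.41), or 5.69-fold lower, had an adjusted limma p of 0.0618, just outside the threshold. Its second probe set agreed in direction, at 7.03, 8.18 and 6.21 in Brg1 cKO, against 9.86, 10.57 and 10.15 in wild type (difference -3.05, adjusted p = 0.0533). Without Brg1 cKO replicate 2 the difference of Mip was -2.99 and passed the test (adjusted p = 0.0036).

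Aqp9, a channel for water and small neutral solutes known from leukocytes and liver, was at 4.71, 5.65 and 4.08 in Brg1 cKO, against 3.48, 3.48 and 3.44 in wild-type eyeballs. The groups did not overlap, with Brg1 cKO higher, as for 7.31% of all probe sets, but only Brg1 cKO replicate 2 was above the low end. The difference of 1.34 (SE 0.37) missed the test (adjusted p = 0.302), and the second probe set of Aqp9 differed by 0.10. Leukocyte genes shifted by 0.79, 1.81 and 1.01 in the same 3 Brg1 cKO arrays, and of 17 measured Cd14, S100a9 and S100a8 rose past the threshold. Aqp2, Aqp7 and Aqp8 had means below the low end and differed by -0.15, 0.16 and 0.16, and the second probe set of Aqp7 by 0.09.

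**Figure D4:**
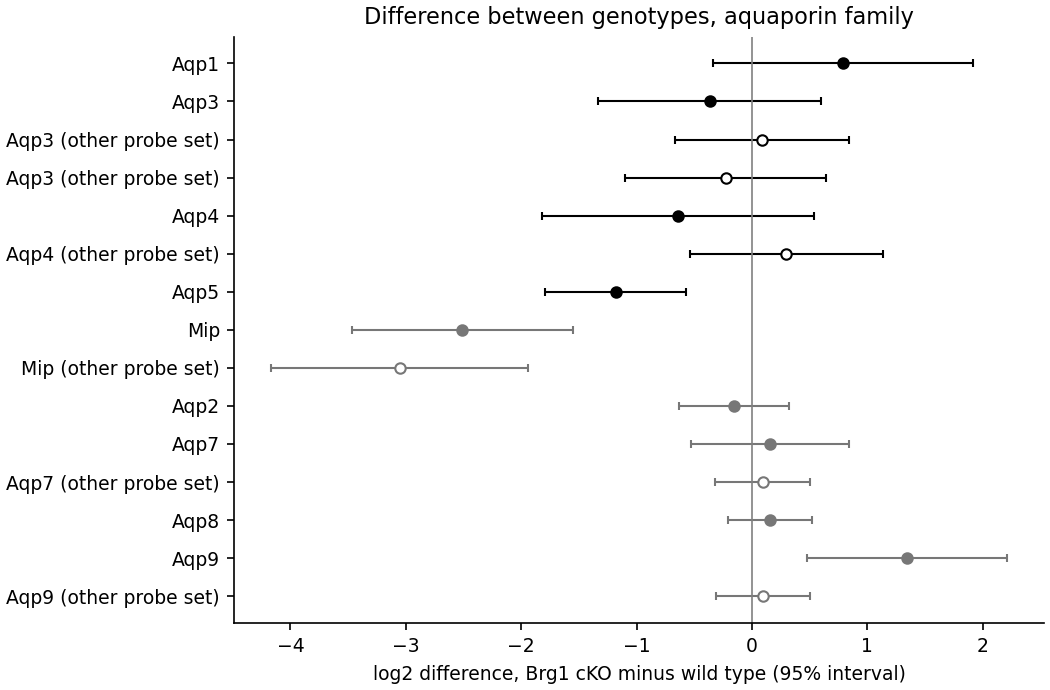
Log2 difference, Brg1 cKO minus wild type, with its 95% interval from limma (horizontal axis) for every aquaporin probe set that names a single gene (vertical axis); filled circles stand for the gene, open circles are other probe sets, black marks Aqp1, Aqp3, Aqp4 and Aqp5, and grey the rest of the family. The intervals of Aqp5, both Mip probe sets and 1 Aqp9 probe set exclude 0, and those of Aqp1, Aqp3 and Aqp4 include it.

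Pumps, channels and exchangers that set the gradients which water follows were listed as the partners of these channels. Of 18 measured genes 0 passed the limma test, and the median difference was -0.05. Car12, a membrane carbonic anhydrase of ciliary epithelium, was at 8.20, 7.76 and 8.17 in Brg1 cKO, against 8.69, 8.49 and 8.90 in wild-type eyeballs, a difference of -0.65 (adjusted p = 0.411) without overlap. Slc4a2, a chloride-bicarbonate exchanger, was at 10.46, 10.57 and 10.01 in Brg1 cKO, against 10.05, 9.75 and 9.84 in wild type. Scnn1b, a subunit of the epithelial sodium channel, differed by -0.71 (adjusted p = 0.638), with 4.18, 5.44 and 4.53 in Brg1 cKO, against 5.43, 5.56 and 5.27 in wild type.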

How the data were processed

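Total RNA of individual eyeballs, 50 ng each, was amplified by NuGEN Ovation chemistry, labelled with biotin and hybridised to Affymetrix mouse arrays. The authors deposited RMA intensity values on a linear scale, after background adjustment, normalization between arrays and summary over the probes of a set. A version of RMA is not given in the sources consulted. Normalization and the limited range of the scanner compress folds, most of all near the low end. No detection calls were used, and the number of arrays limits the precision.

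Intensities were converted to log2. Of 22690 rows, 64 control rows were left out. Of the remaining 22626 probe sets, 20380 had 1 gene in the platform annotation, which can be old, 691 several and 1555 none. The test was limma 3.58.1, run in R 4.3.3 as a two-sided comparison of the genotypes without covariates, with Benjamini-Hochberg adjustment over all probe sets. Differences are Brg1 cKO minus wild type. Exact permutation tests were two-sided. The fit was tested on simulated data. Members and gene lists were chosen with earlier results of these data known. Named were all aquaporin probe sets, genes with the smallest p of a list (up to 4), genes that define its tissue, and the 3 genes nearest in profile to each member. Other genes are marked as chosen after their values were seen or follow from the counts given. The study calls the samples biological replicates. Promoter sequences and positions come from RefSeq, build GRCm38.p6. The alternatives covered normalization, centring, low values, an offset, moderation, array weights, a replicate block, other probe sets and each array left out.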

Additional observations from a re-analysis of the deposited data

How the results depend on the processing

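Of Aqp1, Aqp3, Aqp4 and Aqp5, 0 passed the limma threshold under each of the 14 alternatives. Leaving out 1 array at a time gave differences of 0.27 to 1.18 for Aqp1, -0.75 to 0.12 for Aqp3, -1.26 to -0.23 for Aqp4 and -1.44 to -1.01 for Aqp5. The sign of Aqp3 turned without Brg1 cKO replicate 1 and with its second probe set (0.087), and that of Aqp4 with its second probe set (0.30), which is below the low end. The cause was not tested. Adding 16 to the intensities before log2 gave -0.97 for Aqp5. Array weights gave -0.93 for Aqp4 and 0.57 for Aqp1. Without Brg1 cKO replicate 2 and wild type replicate 3, the arrays highest for muscle in each group, left out together after seeing the data, Aqp4 differed by -1.15 and Aqp5 by -1.17. Mip passed the threshold under 4 alternatives, without Brg1 cKO replicate 2, without these 2 arrays, with intensity trend and robust moderation (adjusted p = 0.0259) and with array weights (0.0162).

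Over all probe sets 115 were called. This count was 140, 216 and 53 without Brg1 cKO replicates 1, 2 and 3, 24, 26 and 36 without wild type replicates 1, 2 and 3, 190 with array weights and 32 with the offset. Same-numbered arrays of the 2 genotypes deviated together only weakly (correlations of 0.06, 0.08 and 0.13). Arrays with different numbers ranged from -0.31 to 0.23. With so few arrays these values cannot show whether same-numbered pups were littermates. The main test took the arrays as unpaired. With the replicate block 45 probe sets were called, and Aqp5 had an adjusted p of 0.304 at the same difference of -1.18.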
